A study of Mus musculus with 68 samples.

Results

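The levels of 10 genes whose products store or degrade maternal mRNA were followed from cumulus cells (CCs) through the preimplantation stages of mouse embryos made by somatic cell nuclear transfer (SCNT). The genes are Btg4, Cnot7, Cnot6l, Pabpn1l, Zfp36l2, Pan2, Zar1, Zar1l, Ybx2 and Cpeb1. They were taken by gene symbol from the 24421 reference genes listed in every deposited table, and each of them was listed once per table. All 10 passed the filter on low values described below.

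The data are RNA-seq libraries made by Smart-seq2, which primes small amounts of RNA at the poly(A) tail. SCNT embryos were made by placing the nucleus of a cumulus cell into an enucleated oocyte of a BDF1 donor, activated in SrCl2 with cytochalasin B and grown in G-1 PLUS medium, and 10 blastomeres went into a reaction. There were 3 libraries of CCs, the nuclear donors, 5 at the 4-cell stage (4C), and 6 each at 6 and 14 h post activation (6 hpa, 14 hpa), the early and late 2-cell stages (E2C, L2C), the 8-cell stage (8C), the morula, and both blastocyst lineages, namely the inner cell mass (ICM) and the trophectoderm (TE). Another 12 libraries came from the ICM and TE of fertilized blastocysts, with 2 libraries per group. These blastocysts were injected as zygotes with morpholinos against Max or Mcrs1, or were labelled control. For the control the paper states injection of a random control morpholino, at a higher concentration than those against Max and Mcrs1. Embryos were pooled in a library and the labels do not say which libraries share embryos, so p-values measure the spread between these libraries, which may be technical.

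A mouse oocyte stops transcription before it matures and keeps its mRNA in a stored form. YBX2 and the ZAR proteins bind and stabilize stored mRNA, and CPEB1 binds the cytoplasmic polyadenylation element in the 3′ untranslated region and sets the length of the poly(A) tail. Clearance begins with the tail: CNOT7 and CNOT6L are deadenylases of the CCR4-NOT complex, BTG4 and ZFP36L2 bring that complex to mRNA, PABPN1L binds the tail and partners BTG4, and PAN2 is the catalytic subunit of another deadenylase, which it forms with PAN3. In mouse the maternal stock is largely removed between the 1-cell and 2-cell stages, while the embryonic genome becomes active.

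Values are TPM, the level of a transcript per length and relative to its library, which puts all genes on a common scale. In a table the TPM sums to 1000000 over loci assembled from that library, and the reference genes hold a share of it that ran from 30.4% to 90.9% over the 53 SCNT libraries. The tables hold no read counts but give the coverage of each gene. This was low behind low values, for example at most 0.317 for Cpeb1 in the ICM and 0.770 to 1.54 for Zfp36l2 at 6 hpa. The aligned gigabases, taken as coverage over FPKM, ran from 1.90 to 5.17 in the SCNT libraries. At L2C replicate 1 stood apart. It held the lowest reference share, 30.4%, and the 2-cell genes Zscan4c, Zscan4d and Usp17lb summed to 0.164 TPM in it against 52.3 to 347 TPM in the other 5 L2C libraries, so results on L2C were also computed without it. E2C replicate 1 also differed in these genes, with 50.8 TPM against 0.813 to 6.35 TPM in the other 5 E2C libraries, and without it the calls of all 10 factors from 14 hpa to E2C and from E2C to L2C were the same. In libraries primed at the poly(A) tail a change in the amount of an mRNA and a change in its tail length cannot be told apart. The same limit holds for a difference in level between genes. In pooled cells, fewer cells with a transcript and less of it per cell cannot be told apart either. The 5 oocyte marker genes summed to at most 2.23 TPM in CCs and at least 1941 TPM at 6 hpa, and the 10 CC marker genes summed to at least 1629 TPM in CCs and at most 66.6 TPM in any SCNT library.

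On the mm10 build, the 6 decay factors lie at chr9:51116001-51119700 (Btg4, plus strand), chr8:40492538-40515847 (Cnot7, minus), chr5:96070333-96161990 (Cnot6l, minus), chr8:122619471-122622735 (Pabpn1l, minus), chr17:84183928-84187947 (Zfp36l2, minus) and chr10:128303335-128321358 (Pan2, plus). The 4 storage factors lie at chr5:72577114-72581084 (Zar1, minus), chr5:150507069-150518159 (Zar1l, minus), chr11:69935899-69941599 (Ybx2, plus) and chr7:81347026-81454758 (Cpeb1, minus). Cnot7 overlaps Vps37a on the opposite strand and Pabpn1l contains Mir6396, and since the strand of the reads is not stated, reads of Cnot7 and Vps37a cannot be told apart where they overlap.

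Because the assay copies RNA through its poly(A) tail, and because CPEB1 is itself one of the 10 factors, the last 100 bases of each mRNA were searched for a cytoplasmic polyadenylation element (CPE, TTTTAT or TTTTAAT, sense strand, overlaps allowed) and for a poly(A) signal (AATAAA or ATTAAA). Transcripts came from GENCODE vM21 on GRCm38, the same assembly as mm10, taking the protein-coding transcript with the most downstream end. A CPE was found in 3 of the 10, Btg4, Ybx2 and Pan2, against 16.6% of 21760 genes, and a poly(A) signal in 8 of the 10 against 75.5%. The 30 bases around the CPE nearest the end are printed for these 3, with the CPE and any poly(A) signal in capitals, and the 3 factors that passed the threshold as lower before L2C, Zar1, Zar1l and Pabpn1l, are printed around the last poly(A) signal, with no CPE found in this window.
Btg4, chr9:51119797-51119826, plus strand: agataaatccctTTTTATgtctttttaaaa
Ybx2, chr11:69941532-69941561, plus strand: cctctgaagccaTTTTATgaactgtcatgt
Pan2, chr10:128321324-128321353, plus strand: aAATAAAagtatTTTTATctcattagaaaa
Zar1, chr5:72577117-72577146, minus strand: ataaagcctgtgAATAAAaggtattgcaaa
Zar1l, chr5:150507056-150507085, minus strand: tcttcagcttaaAATAAAccttgtgacagt
Pabpn1l, chr8:122619473-122619502, minus strand: agaatgtaaattATTAAActtgaatatatt
Of these windows 5 lie wholly in the annotated 3′ untranslated region, and that of Zar1l runs from the coding sequence over the stop codon into a short annotated one. The CPE of Btg4 starts 67 bases before the annotated end, that of Ybx2 62 and the nearest of the 3 in Pan2 18. The annotated end of Btg4 is 175 bases past the end given in the deposited tables, and the 100 bases before that nearer end also held 1 CPE. For Zar1l the annotated end is 14 bases further than in the tables, and the 100 bases before the nearer end held no poly(A) signal. These matches are letters in a sequence and were not tested as binding sites.

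**Figure D1:**
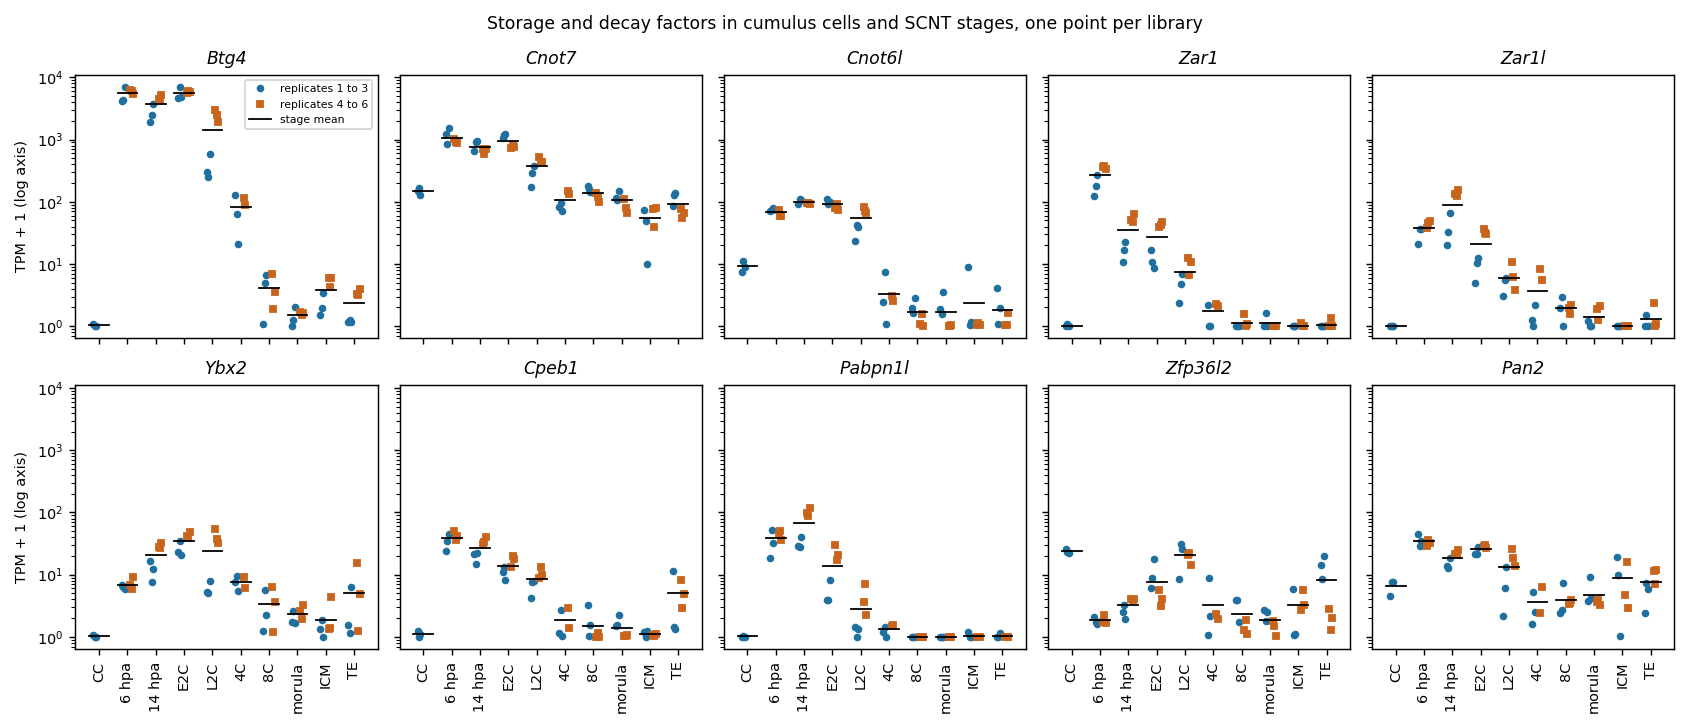
Level of each factor in every library, as TPM + 1 on a log axis, for CCs and the 9 SCNT stages; circles are replicates 1 to 3, squares replicates 4 to 6 and bars the stage means. Btg4 is the most abundant factor from 6 hpa to L2C, and Zfp36l2 is the only one higher in CCs than at 6 hpa. At L2C replicates 1 to 3 lie wholly below replicates 4 to 6 for Btg4, Cnot7, Cnot6l, Pabpn1l, Pan2, Ybx2 and Cpeb1.

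At 6 hpa the levels of the 10 factors spanned from below 1 TPM to 7114 TPM in single libraries. Btg4 was the highest, with a lowest, median and highest library of 4166, 5770 and 7114 TPM, and its mean of 5568 TPM ranked 14 among all reference genes. Cnot7 followed with 850, 967 and 1513 TPM, ranking 97 by its mean. Zar1 had 121, 301 and 377 TPM and Cnot6l 57.7, 71.4 and 78.8 TPM. No library of any of these 4 reached the range of its neighbour in the order. The next 4 were not separated from each other: the means were 38.0 ± 12.8 TPM for Pabpn1l, 37.8 ± 9.42 for Cpeb1, 36.6 ± 9.60 for Zar1l and 33.2 ± 5.97 for Pan2 (SD, n = 6), and their ranges overlapped. Ybx2 was lower, at 4.84, 5.59 and 8.08 TPM, and Zfp36l2 was the lowest at 0.588, 0.729 and 1.26 TPM.

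The comparison of 6 hpa with CCs asks which transcripts differ in level between the reconstructed embryo and the donor cells. No oocyte library was in the series, so the source of a transcript was not tested. Of the 10 factors, 9 were higher at 6 hpa and 1, Zfp36l2, was lower, where a call needs a limma adjusted p under 0.05 and at least a 2-fold difference of log2(TPM + 1). Over all 12084 genes tested, 25.8% were called higher and 35.6% lower. For each of the 10 factors the 6 hpa and CC libraries did not overlap. Btg4 was listed at 0, 0 and 0.0998 TPM in the 3 CC libraries, and Zar1, Ybx2, Cpeb1 and Pabpn1l also stayed below 0.3 TPM in all 3. Zar1l was listed at 0 in every CC library. Pabpn1l, Cpeb1 and Ybx2 were 5.18 ± 0.47, 5.09 ± 0.46 and 2.72 ± 0.63 higher on the log2 scale. The log2 difference was 12.37 ± 0.57 (SE) for Btg4 (limma adjusted p = 7.81e-26) and 7.95 ± 0.47 for Zar1 (limma adjusted p = 3.23e-21). The 3 deadenylases were present in CCs as well. Cnot7 had 126 to 167 TPM there and was 2.84 ± 0.38 higher on the log2 scale at 6 hpa, Cnot6l had 6.54 to 10.2 TPM and was 2.92 ± 0.49 higher, and Pan2 had 3.54 to 6.68 TPM and was 2.40 ± 0.59 higher. Zfp36l2, an AU-rich element binding protein, had 21.7, 21.9 and 24.6 TPM in CCs and fell by 3.69 ± 0.61 on the log2 scale (limma adjusted p = 6.23e-07).

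Between 6 and 14 hpa, still at the 1-cell stage, Zar1 fell and no other factor passed the threshold. Zar1 had 121, 176, 270, 331, 360 and 377 TPM at 6 hpa and 9.71, 15.7, 21.3, 45.5, 49.6 and 62.4 TPM at 14 hpa. The highest library at 14 hpa was below the lowest at 6 hpa, and the log2 difference was -3.13 ± 0.39 (limma adjusted p = 3.48e-08). The mean at 14 hpa was 12.5% of that at 6 hpa. Over all 11867 genes tested, 4.94% were called lower and 6.14% higher. None of the 10 was called higher by limma, with 2 at an unadjusted p under 0.05, Ybx2 and Zar1l.

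These 2 factors and Pabpn1l had higher means at 14 hpa than at 6 hpa, and for all 3 the higher values were in replicates 4 to 6. At 14 hpa replicates 4 to 6 also lay wholly above replicates 1 to 3 for Btg4, Zar1, Cpeb1, Pan2 and Zfp36l2. For Cnot7 and Cnot6l the sets overlapped. Zar1l had 19.7 to 47.6 TPM at 6 hpa. At 14 hpa it had 18.8, 31.7 and 65.7 TPM in replicates 1 to 3 and 122, 132 and 151 TPM in replicates 4 to 6. Pabpn1l had 17.4 to 50.3 TPM at 6 hpa, then 27.3 to 39.9 TPM in replicates 1 to 3 and 87.5 to 116 TPM in replicates 4 to 6. Ybx2 went from 4.84 to 8.08 TPM at 6 hpa to 6.72, 11.4 and 15.5 TPM in replicates 1 to 3 and 26.0, 26.9 and 30.8 TPM in replicates 4 to 6. Within replicates 4 to 6 the log2 differences of Ybx2, Zar1l and Pabpn1l were 2.003, 1.63 and 1.20 and passed the threshold, and within replicates 1 to 3 they were 0.88, 0.21 and 0.04 and did not. Zfp36l2 also passed within replicates 4 to 6, at 1.10, and not within replicates 1 to 3. Over all 6 replicates Ybx2 was at 1.44 ± 0.52 (limma adjusted p = 0.0601). With the replicate number as a block its limma adjusted p was 0.0203, which passed. The labels do not say how replicates 1 to 3 differ from 4 to 6, although 2 sequencing providers are named. The reference share at 14 hpa was 53.7% to 63.8% in replicates 1 to 3 and 65.2% to 69.2% in replicates 4 to 6, and its part in these values was not tested. Cnot6l was also at a higher level at 14 hpa, 89.4 to 110 TPM against 57.7 to 78.8 TPM with no overlap, but its log2 difference of 0.51 ± 0.41 did not pass (limma adjusted p = 0.555). Pan2 had 11.6 to 23.7 TPM against 27.7 to 43.6 TPM at 6 hpa, also without overlap, and its difference of -0.90 ± 0.49 did not pass (limma adjusted p = 0.271). Btg4, Cnot7, Cpeb1 and Zfp36l2 overlapped between the 2 stages, with differences of -0.64, -0.50, -0.56 and 0.78.

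From 14 hpa to E2C, across the first cleavage, Zar1l and Pabpn1l fell. Zar1l had 3.87, 9.32, 11.4, 29.5, 30.4 and 35.6 TPM at E2C, a log2 difference of -2.04 ± 0.46 (limma adjusted p = 0.00216), and Pabpn1l had 2.88, 2.90, 7.32, 16.1, 19.6 and 29.0 TPM, a log2 difference of -2.43 ± 0.39 (limma adjusted p = 2.34e-05). The libraries of the 2 stages overlapped when all were set together, but the difference was of like size in the 2 sets of replicates: -2.04 in replicates 1 to 3 and -2.05 in replicates 4 to 6 for Zar1l, and -2.68 and -2.19 for Pabpn1l. Over all genes tested, 3.05% were called lower and 2.78% higher. With a pseudocount of 0.1 in place of 1 the call of Zar1l was lost (limma adjusted p = 0.101). None of the 10 was called higher by limma, with 1 at an unadjusted p under 0.05, Zfp36l2. Btg4 had 4571, 5678 and 7016 TPM at E2C (lowest, median and highest), and its mean was 101% of that at 6 hpa. Among all reference genes Btg4 ranked 11 by its mean at E2C. Ybx2 reached its highest stage mean at E2C, 33.6 ± 10.7 TPM (SD, n = 6), which was 577% of its mean at 6 hpa, although the step from 14 hpa did not pass (0.85 ± 0.52 on the log2 scale, limma adjusted p = 0.433). The differences of Cnot7, Cnot6l, Zar1, Cpeb1, Pan2 and Zfp36l2 were 0.35, -0.12, -0.38, -0.94, 0.51 and 1.03, and none passed.

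**Figure D2:**
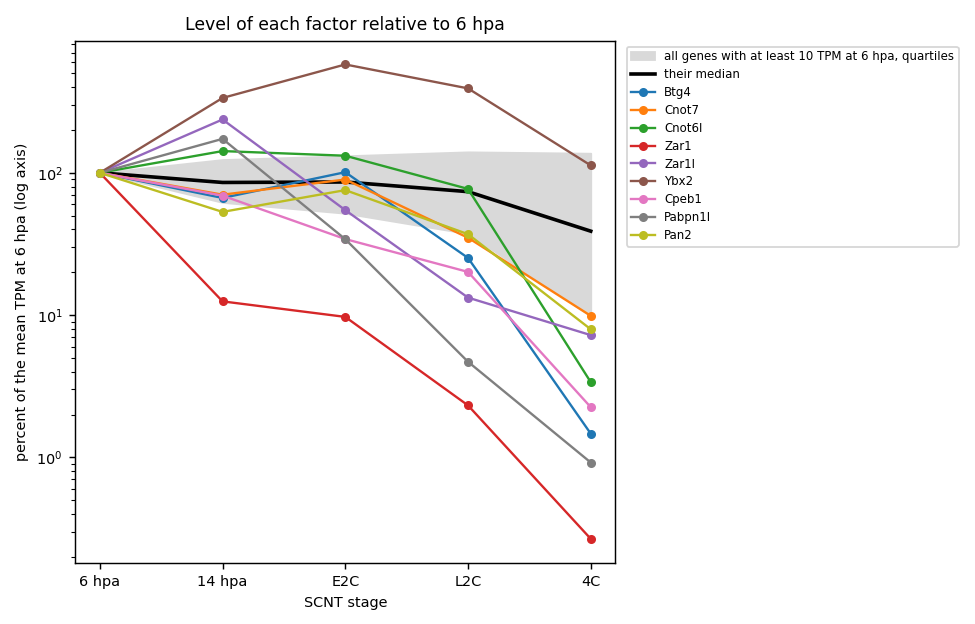
Stage mean of each factor as a percentage of its mean at 6 hpa, on a log axis, with the median and quartiles of 4334 other genes that had a mean of at least 10 TPM at 6 hpa; Zfp36l2, below 1 TPM at 6 hpa, is left out. Zar1 drops to 12.5% by 14 hpa, Btg4 is still at 101% at E2C, and by 4C all but Ybx2 are below the lower quartile of the other genes or, for Cnot7, at it.

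From E2C to L2C, when the major activation of the genome takes place, 6 of the 10 factors fell, 1 rose and 3 did not pass. Over all 11867 genes tested, 11.2% were called lower and 23.7% higher, and the median difference was 0.26 on the log2 scale. The 6 that fell were Btg4, Cnot7, Pan2, Pabpn1l, Zar1 and Zar1l. Btg4 had 4571 to 7016 TPM at E2C and 253, 298, 588, 1903, 2437 and 2947 TPM at L2C. The lowest 3 of these were replicates 1 to 3 and the highest 3 were replicates 4 to 6, and no L2C library reached the E2C range. The log2 difference of Btg4 was -2.60 ± 0.47 (limma adjusted p = 1.48e-05), and it was -3.93 within replicates 1 to 3 and -1.27 within replicates 4 to 6. Cnot7 went from 744 to 1216 TPM at E2C to 170, 294, 375, 437, 437 and 527 TPM, again without overlap, a log2 difference of -1.41 ± 0.31 (limma adjusted p = 0.000245). In quantile-normalized values the difference of Cnot7 was -0.93 and in replicates 4 to 6 it was -0.73, both short of the 2-fold threshold.

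Pabpn1l had 0, 0.351, 0.422, 1.28, 2.59 and 6.05 TPM at L2C, a log2 difference from E2C of -2.26 ± 0.39 (limma adjusted p = 6.71e-06). Zar1 had 1.36, 3.85, 5.78, 5.89, 9.60 and 11.5 TPM, a difference of -1.80 ± 0.39 (limma adjusted p = 0.000219), and Zar1l had 2.03 to 9.79 TPM, a difference of -1.63 ± 0.46 (limma adjusted p = 0.00335). Of these 3 only Zar1l missed the threshold within a set of replicates, with -0.90 in replicates 1 to 3, and it missed also with a pseudocount of 0.1 (limma adjusted p = 0.069). Pan2 had 20.4 to 28.9 TPM at E2C and 1.14, 5.06, 12.2, 12.8, 17.2 and 25.3 TPM at L2C. Its difference of -1.34 ± 0.49 (limma adjusted p = 0.0238) rested on few libraries: without L2C replicate 1, the one that stood apart, it was -0.89 (limma adjusted p = 0.133), and without replicate 2 of both stages it was -1.24 (limma adjusted p = 0.0748). The other 5 calls of a lower level and that of Zfp36l2 were made without that library as well.

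The 3 factors that did not pass from E2C to L2C were Cnot6l, Cpeb1 and Ybx2. Cnot6l had 73.5 to 111 TPM at E2C and 22.1, 38.5, 40.9, 64.4, 69.8 and 81.9 TPM at L2C, with a log2 difference of -0.87 ± 0.41 (limma adjusted p = 0.0875), and Cpeb1 was at -0.71 ± 0.38 (limma adjusted p = 0.139). Ybx2 had 4.04, 4.21 and 6.85 TPM in replicates 1 to 3 and 31.5, 36.9 and 53.5 TPM in replicates 4 to 6. Against E2C its log2 difference was -2.12 within replicates 1 to 3 and -0.08 within replicates 4 to 6, and -1.10 ± 0.52 over all (limma adjusted p = 0.0934). In quantile-normalized values, where the median of all genes was -0.02, all 3 passed, at -1.23 for Cnot6l, -1.47 for Cpeb1 and -1.75 for Ybx2. The 2-cell markers did not follow the sets of replicates at L2C: their sum was 0.164, 52.3 and 347 TPM in replicates 1 to 3 and 119 to 177 TPM in replicates 4 to 6. The reference share did, with 30.4% to 51.8% against 57.8% to 61.8%. At L2C replicates 1 to 3 were also wholly below replicates 4 to 6 for Btg4, Ybx2, Cnot7, Cnot6l, Cpeb1, Pabpn1l and Pan2. For Zar1, Zar1l and Zfp36l2 the sets overlapped. The part of the reference share in these levels was not tested.

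Zfp36l2 was the 1 factor called higher at L2C. It had 0.588 to 1.26 TPM at 6 hpa, 0.927 to 3.12 TPM at 14 hpa, 2.19, 3.10, 4.60, 5.19, 7.96 and 17.1 TPM at E2C, and 7.504, 13.4, 19.8, 21.1, 25.1 and 29.98 TPM at L2C, with every L2C library above every 6 hpa library. It rose by 1.55 ± 0.51 on the log2 scale from E2C to L2C (limma adjusted p = 0.0126). The E2C and L2C libraries overlapped, and the call was lost without replicate 4 (limma adjusted p = 0.0545), without replicate 5 (limma adjusted p = 0.0668), within replicates 1 to 3 (limma adjusted p = 0.388) and with a pseudocount of 0.1 (limma adjusted p = 0.104). From 6 hpa to L2C it rose by 3.36 ± 0.51 (limma adjusted p = 1.80e-07), and its mean at L2C, 19.5 ± 8.06 TPM (SD, n = 6), stood beside 22.7 ± 1.63 TPM in CCs (SD, n = 3). The summed level of the CC markers at L2C was 9.44 to 27.7 TPM against at least 1629 TPM in CCs.

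**Figure D3:**
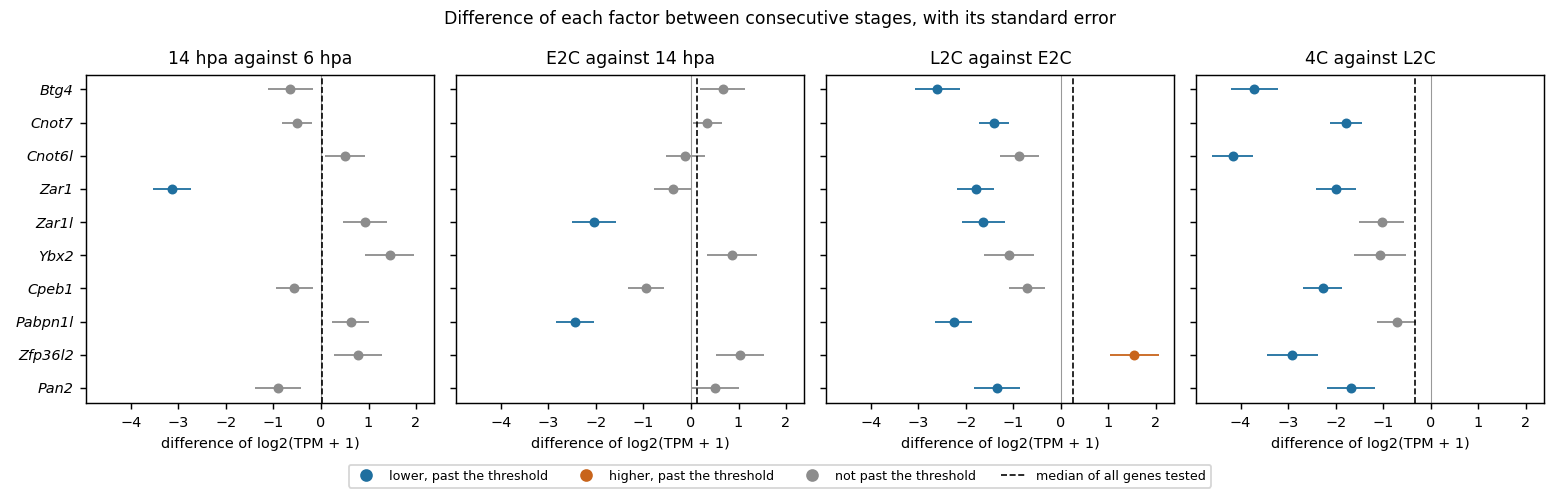
Difference of each factor between consecutive stages in log2(TPM + 1), with its standard error from limma; blue points are called lower, orange higher and grey neither, and the dashed line is the median of all genes tested. Zar1 leads at 14 hpa, Zar1l and Pabpn1l at E2C, 6 factors fall at L2C, and Cnot6l and Btg4 have the largest falls at 4C.

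Set directly against 6 hpa, 7 factors were lower at L2C and 1 was higher. Among all genes tested 16.0% were called lower and 30.9% higher. The mean level left at L2C was 2.32% for Zar1, 4.70% for Pabpn1l, 13.3% for Zar1l, 20.1% for Cpeb1, 25.2% for Btg4, 34.97% for Cnot7 and 37.0% for Pan2. For all 7 the L2C and 6 hpa libraries did not overlap. Zar1 had the largest difference, -5.30 ± 0.39 on the log2 scale (limma adjusted p = 1.83e-16), followed by Pabpn1l with -4.07 ± 0.39 (limma adjusted p = 1.35e-12) and Zar1l with -2.75 ± 0.46 (limma adjusted p = 1.21e-06). Btg4 was at -2.57 ± 0.47, Cpeb1 at -2.21 ± 0.38, Pan2 at -1.73 ± 0.49 and Cnot7 at -1.57 ± 0.31. The call of Pan2 was lost within replicates 4 to 6 (-0.79, limma adjusted p = 0.129). Cnot6l, with 77.1% left, was at -0.48 ± 0.41 (limma adjusted p = 0.337), and its 2 sets of replicates differed: the mean went from 73.8 to 33.8 TPM in replicates 1 to 3, without overlap, and from 63.5 to 72.0 TPM in replicates 4 to 6. Ybx2 was at 392% of its 6 hpa mean and at 1.20 ± 0.52 (limma adjusted p = 0.0509), a value that came from replicates 4 to 6: the difference was 2.50 within them and -0.10 within replicates 1 to 3. Without L2C replicate 1 Ybx2 was at 1.51 and passed (limma adjusted p = 0.0156).

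The order in which the factors fell was then set against the transcripts cleared over the same period. The cleared genes were the 1890 genes other than the factors that were called lower at L2C than at 6 hpa, and for each the share of its log2 difference from 6 hpa to L2C that was already reached at 14 hpa and at E2C was taken. By 14 hpa the median cleared gene had reached 26.0% of its fall, with quartiles of 2.55% and 55.1%. By E2C it had reached 45.6%, with quartiles of 15.6% and 75.8%. The largest part of the fall came between E2C and L2C in 55.7% of the cleared genes, between 6 and 14 hpa in 28.5% and between 14 hpa and E2C in 15.8%. The stages share libraries between these steps, and the shares are given as a description.

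The 7 cleared factors did not keep to one time. Zar1 had made 59.0% of its fall by 14 hpa, more than 77.6% of the cleared genes, and 66.1% by E2C. Pan2 had made 52.2% by 14 hpa but stood at 22.3% at E2C. Cpeb1 had made 25.2% by 14 hpa and 67.7% by E2C, although none of its 3 single steps passed the threshold. Zar1l and Pabpn1l were at -33.5% and -15.3% at 14 hpa, that is, above their 6 hpa level. Over all replicates they were at 40.7% and 44.5% by E2C, near the median of the cleared genes, but the sets of replicates differed. By E2C Zar1l lay above 67.1% of the genes cleared within replicates 1 to 3 and above 28.7% within replicates 4 to 6. For Pabpn1l these values were 58.8% and 40.3%. Btg4 and Cnot7, the adaptor and the deadenylase, stood at 25.0% and 31.9% by 14 hpa, near the median of the cleared genes, and were back at -1.09% and 9.81% by E2C, where 15.7% and 21.7% of the cleared genes were below them. At E2C, when the median cleared gene had made 45.6% of its fall, the 2 were at 101% and 89.7% of their mean TPM at 6 hpa. Within replicates 1 to 3 Btg4 was at -2.62% and Cnot7 at 1.55% by E2C, and within replicates 4 to 6 at 3.36% and 27.4%. By 14 hpa Cnot7 was at 23.9% within replicates 1 to 3 and at 48.9% within replicates 4 to 6, above 78.8% of the genes cleared there.

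**Figure D4:**
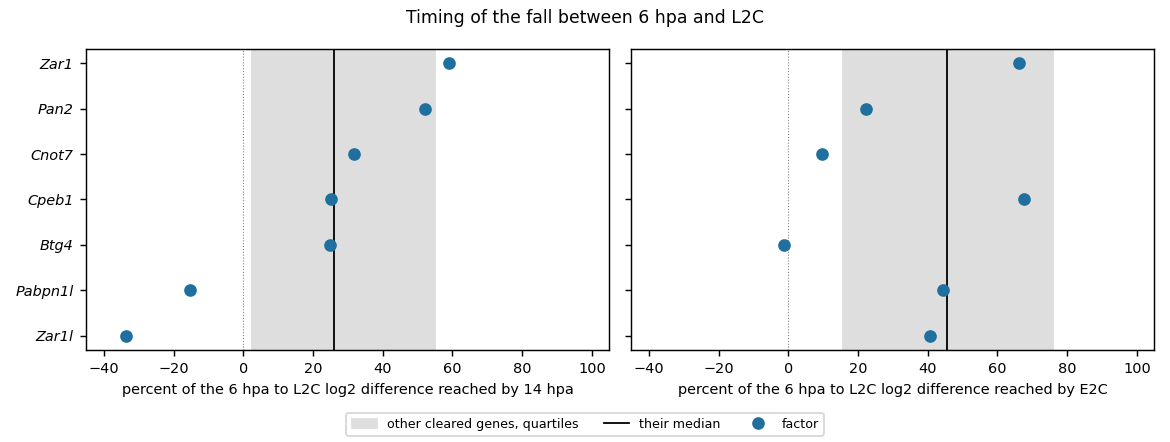
Percent of the log2 difference from 6 hpa to L2C that each of the 7 cleared factors had reached by 14 hpa (left) and by E2C (right), with the median and quartiles of the 1890 other cleared genes; values below 0 mark a level above that at 6 hpa. Zar1l and Pabpn1l lie below 0 at 14 hpa, and Btg4 and Cnot7 lie below the lower quartile at E2C.

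From L2C to 4C, 7 of the 10 factors fell, and none was called higher by limma or had an unadjusted p under 0.05 in that direction. Over all genes tested 26.6% were called lower and 11.8% higher, with a median of -0.33 on the log2 scale. Cnot6l fell from 22.1 to 81.9 TPM to 0.0802, 1.49, 1.56, 2.11 and 6.37 TPM. Its log2 difference of -4.17 ± 0.43 (limma adjusted p = 1.78e-11) was the largest of the 10. Btg4 fell to 20.0, 61.9, 88.0, 112 and 127 TPM, a difference of -3.72 ± 0.50 (limma adjusted p = 1.91e-08), and Cnot7 to 70.2, 82.4, 94.2, 133 and 148 TPM, a difference of -1.78 ± 0.33 (limma adjusted p = 1.20e-05). None of these 3 overlapped between the stages. Zfp36l2 went back to 0.0929, 0.965, 1.158, 1.36 and 7.97 TPM (-2.92 ± 0.53, limma adjusted p = 1.14e-05). Zar1 fell as well, with 2 of 5 libraries listed at 0 (limma adjusted p = 8.01e-05), and Cpeb1 and Pan2 fell by 2.28 and 1.68 on the log2 scale. The call of Pan2 was lost without replicate 4 (limma adjusted p = 0.085) and within replicates 1 to 3 (limma adjusted p = 0.402). Pabpn1l had 0 to 0.582 TPM and Zar1l 0 to 7.23 TPM at 4C, and neither passed. Ybx2 had 4.40 to 8.46 TPM, beside 4.04 to 6.85 TPM in replicates 1 to 3 of L2C, and its difference of -1.07 ± 0.55 did not pass (limma adjusted p = 0.116). By 4C the mean left of the 6 hpa level was 0.268% for Zar1, 0.920% for Pabpn1l, 1.47% for Btg4, 2.25% for Cpeb1, 3.38% for Cnot6l, 7.23% for Zar1l, 7.95% for Pan2, 9.88% for Cnot7 and 113% for Ybx2. For 4334 other genes with at least 10 TPM at 6 hpa the median left at 4C was 38.9%, with quartiles of 9.86% and 137%.

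From 4C to 8C Btg4 was the 1 factor that passed, and it fell. It had 0.102, 0.872, 2.59, 3.91, 5.73 and 5.82 TPM at 8C, a log2 difference from 4C of -4.35 ± 0.50 (limma adjusted p = 3.79e-09), and the libraries of the 2 stages did not overlap. Over all genes tested 8.23% were called lower and 11.5% higher from 4C to 8C, and none of the factors was called higher by limma, also at an unadjusted p under 0.05. Ybx2 was at -1.42 ± 0.55 in this step (limma adjusted p = 0.0558). At 8C Pan2 had 1.40 to 6.28 TPM, and Cnot6l, Zar1, Zar1l, Cpeb1, Pabpn1l and Zfp36l2 each stayed at or below 2.94 TPM. From 8C to the morula no factor passed, where 3.48% of all genes were called lower and 8.74% higher, with 1 factor, Btg4, lower at an unadjusted p under 0.05. At the morula Btg4 was at 0 to 1.015 TPM, Zar1 was listed at 0 in 5 of 6 libraries and Pabpn1l in all 6. Pan2 had 2.24 to 8.02 TPM, and Cnot6l, Zar1l, Ybx2, Cpeb1 and Zfp36l2 each stayed at or below 2.57 TPM. Cnot7 was the exception: it stayed between 98.5 and 175 TPM at 8C and between 65.5 and 150 TPM at the morula, near its 126 to 167 TPM in CCs. Its mean at 8C, 138 ± 27.5 TPM (SD, n = 6), was 12.9% of that at 6 hpa.

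Between the TE and ICM of SCNT blastocysts Cpeb1 was higher in the TE, with 0, 0.0235, 0.0625, 0.110, 0.207 and 0.258 TPM in the ICM and 0.359, 0.431, 1.94, 3.87, 7.09 and 10.4 TPM in the TE. The libraries did not overlap and the log2 difference was 1.74 ± 0.38 (limma adjusted p = 0.00286). It was lost when only the ICM and TE libraries were fitted (limma adjusted p = 0.28), in quantile-normalized values (limma adjusted p = 0.101) and within replicates 1 to 3 (limma adjusted p = 0.237). Over all genes tested 3.87% were called higher in the TE and 1.47% lower. No factor was called lower by limma, also at an unadjusted p under 0.05. Cnot7 had 8.89 to 78.3 TPM in the ICM and 53.8 to 136 TPM in the TE (0.93 ± 0.31, limma adjusted p = 0.0656). Zfp36l2 had 0.0637 to 4.89 TPM in the ICM and 0.315 to 18.7 TPM in the TE. Within replicates 1 to 3 Cnot7 and Zfp36l2 were called higher in the TE, at 1.81 and 2.80 on the log2 scale. Ybx2, Pan2, Btg4 and Cnot6l overlapped between the lineages and did not pass. Zar1l was listed at 0 in all 6 ICM libraries, and Zar1, Zar1l and Pabpn1l were at or below 1.40 TPM in every ICM and TE library.

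In the 12 libraries of fertilized blastocysts 4 factors were listed at 0 in most libraries. Btg4 was listed at 0 in 9 of them, and Zar1, Zar1l and Pabpn1l in 11 each. Replicate 2 of the control ICM held the highest values of Btg4 and Zar1, 7.42 and 3.47 TPM. Zar1l and Pabpn1l reached at most 0.289 and 0.179 TPM. Cnot7 had a lowest, median and highest value of 50.9, 108 and 134 TPM, Pan2 5.40, 15.1 and 36.6 TPM, and Ybx2 3.17, 5.37 and 26.9 TPM. These libraries were not set against the SCNT libraries by a test.

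A list of 53 other genes of mRNA storage, deadenylation, decapping and poly(A) binding was followed beside the 10, of which 51 passed the filter. It did not move as 1 group. From 6 hpa to L2C 13 were called lower and 13 higher, where 16.0% and 30.9% of all genes tested were. The median was -0.08 on the log2 scale against 0.37 over all genes and -1.97 over the 10 factors. The 3 largest falls were those of Dcp1a, a decapping cofactor, from a mean of 113 TPM to 7.41 TPM (-4.04 ± 0.57, limma adjusted p = 3.34e-08), and of the CCR4-NOT subunits Cnot11 (-3.26 ± 0.52) and Cnot3 (-3.005 ± 0.57). The 3 largest rises were those of the antiproliferative adaptors Tob1, from 1.59 to 108 TPM (5.16 ± 0.66, limma adjusted p = 2.95e-09), and Btg3 (3.01 ± 0.48), and of Pabpc1, the main cytoplasmic poly(A)-binding protein of somatic cells, from 4.17 to 91.3 TPM (4.10 ± 0.35, limma adjusted p = 2.03e-14). Tob1 and Btg3 belong to the same family as Btg4, which fell by 2.57 over the same period.

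Fewer genes of this list were called up to E2C than from E2C to L2C, as was so over all genes tested. Of all genes, 4.94% were lower and 6.14% higher from 6 to 14 hpa. From 14 hpa to E2C 3.05% were lower and 2.78% higher, and from E2C to L2C 11.2% and 23.7%. From 6 to 14 hpa 5 of the 51 were lower, led by Btg1 (-2.54 ± 0.49), Dcp1a (-1.73 ± 0.57) and Igf2bp2 (-1.36 ± 0.37), and 3 were higher: Paip2, an inhibitor of poly(A)-binding protein, from 70.0 to 462 TPM (2.71 ± 0.21, limma adjusted p = 5.53e-14), Tob1 (2.02 ± 0.66) and Ybx3, a relative of Ybx2 (1.71 ± 0.39). From 14 hpa to E2C none of the 51 was lower and 2 were higher, Pabpc1 (1.46 ± 0.35) and Cnot8 (1.40 ± 0.43), the paralogue of Cnot7. From E2C to L2C 7 were lower, with Cnot3 (-1.94 ± 0.57), Cnot11 (-1.85 ± 0.52) and Dcp1a (-1.60 ± 0.57) leading, and 11 were higher, with Pabpc1 (3.202 ± 0.35), Btg1 (2.27 ± 0.49) and Btg3 (2.10 ± 0.48) leading. By stage mean Cnot7 was above Cnot8 up to L2C and below it at 4C and 8C. Cnot7 went from a mean of 1068 TPM at 6 hpa to 374 TPM at L2C, 106 TPM at 4C and 138 TPM at 8C. Cnot8 went from 58.9 to 98.5, 151 and 241 TPM. At 4C their libraries overlapped, with 70.2 to 148 TPM for Cnot7 and 74.5 to 277 TPM for Cnot8. Pan3, the partner of Pan2, had a mean of 502 TPM at 6 hpa and 339 TPM at L2C, above Pan2 with 33.2 and 12.3 TPM.

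At the step to 4C 17 of the 51 were lower and 2 higher, where 26.6% and 11.8% of all genes tested were. The largest falls were in Paip1, a poly(A)-binding protein partner in translation, from 1710 to 59.0 TPM (-4.84 ± 0.43, limma adjusted p = 1.71e-13), in Dazl, a germ cell RNA-binding protein (-3.36 ± 0.30), and in the decapping enzyme Dcp2 (-3.03 ± 0.36). The 2 rises were in Edc3 (1.49 ± 0.56) and Paip2 (1.22 ± 0.22). From 4C to 8C 10 were lower, with Tob1 (-2.73 ± 0.69), Cpeb4 (-2.37 ± 0.43), a relative of Cpeb1, and Lsm14a (-2.02 ± 0.44) leading, and 4 were higher, with Rqcd1, the CCR4-NOT subunit also named Cnot9 (1.93 ± 0.43), Pabpc4 (1.43 ± 0.36) and Igf2bp2 (1.42 ± 0.39) leading. From 8C to the morula 3 were lower, Cpeb2 (-1.73 ± 0.49), Btg1 (-1.73 ± 0.49) and Pan3 (-1.07 ± 0.35), and 1 was higher, Btg2 (2.47 ± 0.58). Between the TE and ICM no gene of the list passed. Against CCs, 22 were higher and 15 lower at 6 hpa. Dazl, Paip1 (5.26 ± 0.50) and Lsm14b (4.40 ± 0.41) led the former, Dazl being listed at 0 in CCs and at a mean of 338 TPM at 6 hpa. Pabpc1 (-6.35 ± 0.42), Zfp36l1 (-5.37 ± 0.66) and Tob1 (-5.08 ± 0.79) led the latter, with Zfp36l1 a relative of Zfp36l2, which was also lower.

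A list of 12 other oocyte transcripts, such as Zp3, Gdf9 and Mos, served as a reference for maternal RNA. Of these, 5 were lower at 14 hpa than at 6 hpa, 9 were lower at L2C than at 6 hpa and 11 were lower at 4C than at L2C. Their median level left of the 6 hpa mean was 55.8% at 14 hpa, 49.7% at E2C, 30.1% at L2C and 2.79% at 4C. Btg4, with 66.6%, 101%, 25.2% and 1.47% at the same stages, lay above that median at 14 hpa and E2C and below it at L2C and 4C. Cnot6l, with 142%, 132%, 77.1% and 3.38%, lay above it at every one of these stages. The 12 transcripts themselves spread widely, from 5.72% to 142% at 14 hpa and from 6.79% to 82.1% at E2C. At L2C they ran from 1.14% to 65.1% and at 4C from 0.202% to 20.3%. Btg4 lay outside these ranges only at E2C, and Cnot6l only at E2C and L2C. From E2C to L2C 5 of the 12 were lower, from 14 hpa to E2C 1, from 4C to 8C 5 and from 8C to the morula 1, and none was called higher in any of these comparisons. At 6 hpa 11 were higher than in CCs.

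Profiles were compared over the 53 SCNT libraries. The highest Pearson correlation of log2(TPM + 1) between factors was 0.95, for Zar1l with Pabpn1l, followed by 0.94 for Btg4 with Cnot6l. Among all other tested genes the 2 most like Btg4 were Oosp3 (r = 0.994) and E330034G19Rik (r = 0.993), and the 2 most like Zar1 were Stard13 (r = 0.982) and Ppp1r3d (r = 0.978). For Cnot6l they were Gm13752 (0.980) and Lingo2 (0.976), for Pabpn1l Gm12633 (0.982) and Gm11548 (0.976), for Zar1l Oas1h and Nobox (0.955 each), for Cnot7 Tex12 (0.939) and Ccndbp1 (0.937), and for Cpeb1 Ccdc69 (0.934) and Neil3 (0.931). The closest genes were less alike for Pan2, with Bscl2 (0.865) and Herc2 (0.859), for Ybx2, with Ss18l1 (0.853) and Psg17 (0.849), and for Zfp36l2, with 1190002F15Rik (0.764) and 1810026B05Rik (0.762). The libraries of a stage share their stage and those of a set of replicates may share a batch, so these are descriptions without a test.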

How the data were processed

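RNA was copied from polyadenylated transcripts by Smart-seq2 in 68 libraries. According to the methods and labels, the authors used Cutadapt 1.16 for trimming, HISAT2 for mapping to mm10 and StringTie for quantification. The authors deposited a gene table per library with coverage, FPKM and TPM. The deposited TPM is the signal used here. The deposited FPKM and coverage signal served only to estimate aligned gigabases and to show the depth behind low values. The TPM column holds assembled loci, which sum to 1000000, and reference genes on the same scale, so reference values depend on how much of a library was assembled elsewhere.

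Rows of a symbol were summed. Groups and replicate numbers came from the sample titles, and 1 4C library is replicate 5 in its title and 6 in the name of its table. With limma 3.58.1 in R 4.3.3, log2(TPM + 1) was fitted (eBayes with trend) where the mean over the fit reached 1 TPM, in 9 SCNT stages together (53 libraries, 11867 genes) and with CCs for 6 hpa against CC (56 libraries, 12084 genes). A call needed a Benjamini-Hochberg adjusted p under 0.05, over all genes of the fit, and at least a 2-fold difference of log2(TPM + 1), which understates the change of low genes. Tested on simulated data with 200 genes changed by 2 on the log2 scale, limma recovered 74.0% for L2C against E2C on 11867 genes. Of its 153 calls 5 were false. For 6 hpa against CC on 12084 genes it recovered 53.5%, with 5 of 112 calls false. The simulated noise was independent between libraries and held no difference between the sets of replicates, so these rates may not carry over to these data. No count test and no counting interval could be given, since the tables hold no counts.

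The factors and lists were chosen with earlier results of these data known. All 10 factors are named in every comparison, the related list by its counts and its 3 largest changes per direction, and the 2 genes most like each factor by Pearson correlation. The genes named for an unadjusted p under 0.05 were chosen after their values were seen. Same-numbered libraries deviated together across genes in every pair for 14 hpa against 6 hpa (correlations 0.142 to 0.390) and TE against ICM (0.131 to 0.300). In each of these comparisons only 2 of 6 libraries correlated best with their own number. Libraries of a set of replicates may also share deviations, so pairing was not shown. The main fits did not pair libraries. In the other comparisons at least 1 pair was under 0.1. Alternatives were a pseudocount of 0.1, no filter, a filter at a mean of 5 TPM, quantile normalization, rescaling to the sum of annotated genes, a replicate block, the 2 sets of replicates alone or as a term, only the groups compared, each replicate left out, the largest row of a gene and, added after seeing the data, L2C replicate 1 or E2C replicate 1 left out. Sequences were read from GENCODE vM21 transcripts. Figures were drawn with matplotlib 3.10.9.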

Additional observations from a re-analysis of the deposited data

Results flagged for a closer look

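Dixon's ratio at the 95% level was applied to log2(TPM + 1) of each factor in each SCNT stage where its mean reached 1 TPM, and 4 of the 65 sets of libraries held a library that lay apart, where chance alone flags about 1 in 20 sets. In the ICM, replicate 3 had 8.89 TPM of Cnot7 against 38.7 to 78.3 TPM in the other libraries, and replicate 1 had 7.97 TPM of Cnot6l against at most 0.167 TPM in the others. At 6 hpa replicate 1 had 19.7 TPM of Zar1l against 35.4 to 47.6 TPM. At the morula replicate 2 had 8.02 TPM of Pan2 against 2.24 to 3.19 TPM.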

How the results depend on the processing

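The calls from 6 hpa against CC, of 9 factors higher and 1 lower, were the same in every alternative run, the fall of Zar1 from 6 to 14 hpa likewise, and no called log2 difference reversed. From 6 to 14 hpa the factors called higher, 0 in the report, were 1 with TPM rescaled over annotated genes, quantile normalization, the replicate block, the set of replicates as a term or only the groups compared, 4 in replicates 4 to 6, and 0 to 1 with a replicate left out. From 14 hpa to E2C 1 factor was lower with a pseudocount of 0.1. From E2C to L2C 0 were higher with a pseudocount of 0.1, a mean TPM of at least 5 or replicates 1 to 3, and 0 to 1 with a replicate left out; the lower ones numbered 4 to 8 over all alternatives. From 6 hpa to L2C 2 were higher, Zfp36l2 and Ybx2, with rescaled TPM, the replicate block, the set as a term or replicates 4 to 6, and 1 to 2 with a replicate left out, L2C replicate 1 among them. In that comparison Cnot6l reversed to 0.00021 with rescaled TPM and 0.18 in replicates 4 to 6, and Ybx2 reversed to -0.10 in replicates 1 to 3, none of these a call. From 4C to 8C 2 were lower with a pseudocount of 0.1, a mean TPM of at least 5, rescaled TPM, the replicate block or the set as a term, 3 in replicates 4 to 6, and 1 to 2 with a replicate left out. From 8C to the morula 1 was lower with a pseudocount of 0.1, rescaled TPM, quantile normalization, the replicate block, the set as a term, replicates 4 to 6 or only the groups compared, and 0 to 1 with a replicate left out. In TE against ICM 0 were higher with quantile normalization or only the groups compared, 2 in replicates 1 to 3, and 1 to 2 with a replicate left out. The median share of the fall made by cleared genes was 16.4% at 14 hpa in replicates 4 to 6, and at E2C 38.2% with quantile normalization, 40.4% with a pseudocount of 0.1 and 39.1% in replicates 4 to 6. The causes were not tested.

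Rescaling moved the median of all genes from 0.26 to 0.54 for L2C against E2C and quantile normalization to -0.02, so directions near 0 at L2C depend on the scale. Besides the calls given above, the replicate block called Ybx2 lower from E2C to L2C (-1.10, limma adjusted p = 0.045). The numbers are not shown to pair libraries in any comparison. In no comparison did every library correlate best with its own number (2 to 4 did). Without counts, a value under about 1 TPM in a library may be a missed transcript.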

Other observations

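In the fertilized blastocysts, 2 factors differed between the libraries labelled control and those injected with a morpholino against Max or Mcrs1. The paper states that the controls received a random control morpholino at a higher concentration than the other morpholinos. Target and dose therefore cannot be told apart here. The difference was chosen after the values were seen and was not tested. Ybx2 had 19.2, 22.9, 23.2 and 26.9 TPM in the 4 control libraries. In the 8 libraries of Max or Mcrs1 morpholinos it had 3.17 to 6.35 TPM, without overlap. Pan2 had 23.7, 24.2, 27.1 and 36.6 TPM in the control libraries and 5.40 to 24.6 TPM in the other 8, with overlap. Cnot7 had 89.4 to 119 TPM in the control libraries and 50.9 to 134 TPM in the other 8. The reference share also separated them, with 85.5% to 90.3% in the control libraries and 93.6% to 94.4% in the other 8. The aligned gigabases ran from 1.00 to 2.32 in the control libraries and from 1.98 to 3.19 in the other 8. The part of these differences in the levels was not tested.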
